A study of Mus musculus with 8 samples.

Results

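Sphincter 1 is the larger of the 2 clusters of sphincter muscle nuclei among the 10 cell types that the study's labels distinguish in single-nucleus RNA-seq (snRNAseq) of the mouse iris. Its members were taken from the deposited cell type label of each nucleus. They numbered 779 of 25392 nuclei in the 5 libraries compared here, and 1011 of 34357 nuclei in all 8 libraries. The question of the comparison is which transcripts change in this muscle when the pupil is held open by drugs, the state in which the sphincter is relaxed.

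All irises came from female mice that the labels call WT, and the study's methods give them as albino and 6 to 8 weeks old. The dilated group received hourly eye drops of 5% phenylephrine with 1% cyclopentolate in the dark, with eyes taken 6.5 h after the start (2 libraries), and the untreated group had no treatment (3 libraries). The last group, constricted with 5% pilocarpine on the same schedule in the light (3 libraries), entered the fit only to add to the estimate of the spread between libraries. Each library pooled 5 or 6 irises, so a library is 1 replicate and single animals cannot be told apart. The study's methods describe the libraries as separate biological replicates, processed in 5 batches, with each condition in at least 2 of them. Which library belonged to which batch is not given in the sources used here, so no batch term could be fitted. Both drugs were given together and in darkness, so the effects of the adrenergic agonist, of the muscarinic antagonist, of darkness, of hourly handling and of the mechanical state cannot be told apart.

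The iris sphincter is a ring of smooth muscle at the pupil margin. Acetylcholine from parasympathetic nerves acts on its muscarinic receptors: M3 receptors couple through Gq to phospholipase C, inositol trisphosphate and release of calcium from the sarcoplasmic reticulum, and M2 receptors couple through Gi to inhibition of adenylyl cyclase. Cyclopentolate blocks muscarinic receptors, and phenylephrine activates the alpha1-adrenergic receptors through which the opposing dilator muscle contracts. Unlike most smooth muscle, both iris muscles derive from neuroectoderm.

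The untreated libraries held 50, 184 and 310 sphincter 1 nuclei (replicates 1, 2 and 3), with 186010, 627138 and 1107793 UMIs (unique molecular identifiers, each standing for 1 captured RNA molecule). The dilated libraries held 103 and 132 nuclei with 366692 and 433343 UMIs. Untreated replicate 1 was therefore the shallowest of the 5. The whole libraries held 5189437 to 25136427 UMIs over all 8. In sphincter 1, the median was 3332 UMIs per nucleus in the untreated group and 3174 in the dilated group. UMIs were summed over the sphincter 1 nuclei of each library, and levels are given as CPM, the UMIs of a gene per 1000000 UMIs of that sum. A lower CPM in each nucleus and a smaller share of nuclei that express it cannot be told apart in such sums.

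The label was compared with marker lists. It was assigned by clustering of these same transcripts, so a high level of its markers was favoured. The summed level of 19 sphincter 1 markers was 23687 to 28031 CPM in the untreated and 18950.3 to 20693 CPM in the dilated libraries, compared with 6022 to 6436 CPM in sphincter 2 and 848 to 1073 CPM in dilator muscle. The study chose most of these markers on these samples. The ranges of the 2 groups did not overlap, and 5 of the 19 markers (*Acss1*, *Ttn*, *Ctnna3*, *Kcnma1* and *Lrrtm3*) were called lower with dilation. In untreated and dilated sphincter 1, the 11 sphincter 2 markers summed to 11487 to 13219.7 CPM and 11125 to 13614 CPM. In sphincter 2 they were at 14866.5 to 17096 CPM, so this list separates the 2 types less. The 10 dilator muscle markers were at 1531 to 1589 CPM and 1242 to 1898 CPM, and at 6722 to 8444 CPM in dilator muscle. Markers of the iris pigment epithelium lay at 1812 to 1939.9 CPM in untreated and 2159.9 to 2408 CPM in dilated sphincter 1 nuclei, and those of the ciliary body at 425 to 437 CPM and 535 to 660.0 CPM. For these 2 lists the dilated libraries stood above all untreated ones, and the part this plays in the results was not tested. The pigment epithelium markers were lower in sphincter 2 (443 to 745 CPM) and dilator muscle (282 to 637 CPM) than in sphincter 1. Leukocyte markers (41.5 to 80.6 and 23.1 to 46.4 CPM) and endothelial markers (29.8 to 86.0 and 57.7 to 79.1 CPM) overlapped between the groups, as did those of stroma 1 (898 to 1336 and 1200.0 to 1514 CPM) and stroma 2 (333 to 568 and 371 to 436 CPM), and no marker was at 0 in all 5 libraries.

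Untreated replicate 1 and dilated replicate 1 shared 63 cell barcodes, the most of any of the 28 pairs of libraries. Of these, 3 were sphincter 1 nuclei in both libraries. Scrublet, a tool that scores each nucleus against simulated doublets, called 76 of the 1011 sphincter 1 nuclei doublets (7.52%), compared with 359 of all 34357 nuclei (1.04%). Sphincter 1 made up 10.4%, 7.67% and 13.1% of the iris muscle nuclei in the untreated libraries and 3.76% and 8.66% in the dilated libraries. The groups overlapped, with a difference in means of -4.18 percentage points (exact permutation test, two-sided, p = 0.4). With 2 libraries against 3, 0.2 is the smallest p that this test can give.

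Of 7112 genes tested, 45 were higher and 94 were lower in dilated than in untreated sphincter 1, which is 0.633% and 1.32% of the genes tested. To be called, a gene had to change by more than 0.6 on the log2 scale, either way, with an adjusted p below 0.05 (edgeR quasi-likelihood test with Benjamini-Hochberg adjustment). All further adjusted p-values of a dilation effect come from this test. In 137 of the 139 called genes, every dilated library lay on the same side of every untreated library. Calling on these same libraries favours such a separation, and its share over all genes tested is not given here. Some genes that were not called, such as *Cacnb4*, also had groups that did not overlap. The exceptions among the called genes were *Jun* and *Fn1*. The count depends on single libraries: it was 14 higher and 27 lower without dilated replicate 2, and 8 higher and 37 lower without untreated replicate 3. The sign of all 139 called genes stayed the same with each of the 5 libraries left out. The separation of the groups in these genes leaves almost no room for a change of sign. Of the 139, 20 passed the thresholds each time. The 20 were *Pde10a*, *Pde3b*, *Gpnmb* and *Prdx6* among the higher genes, and *Chrm2*, *Acss1*, *Ttn*, *Akap6*, *Stac*, *Dgkg*, *Entpd3*, *Serpini1*, *Pcp4l1*, *Plppr4*, *Dlgap1*, *Klhl7*, *Fam241a*, *Ptp4a3*, *Arhgap20* and *Gm42397* among the lower ones.

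**Figure D1:**
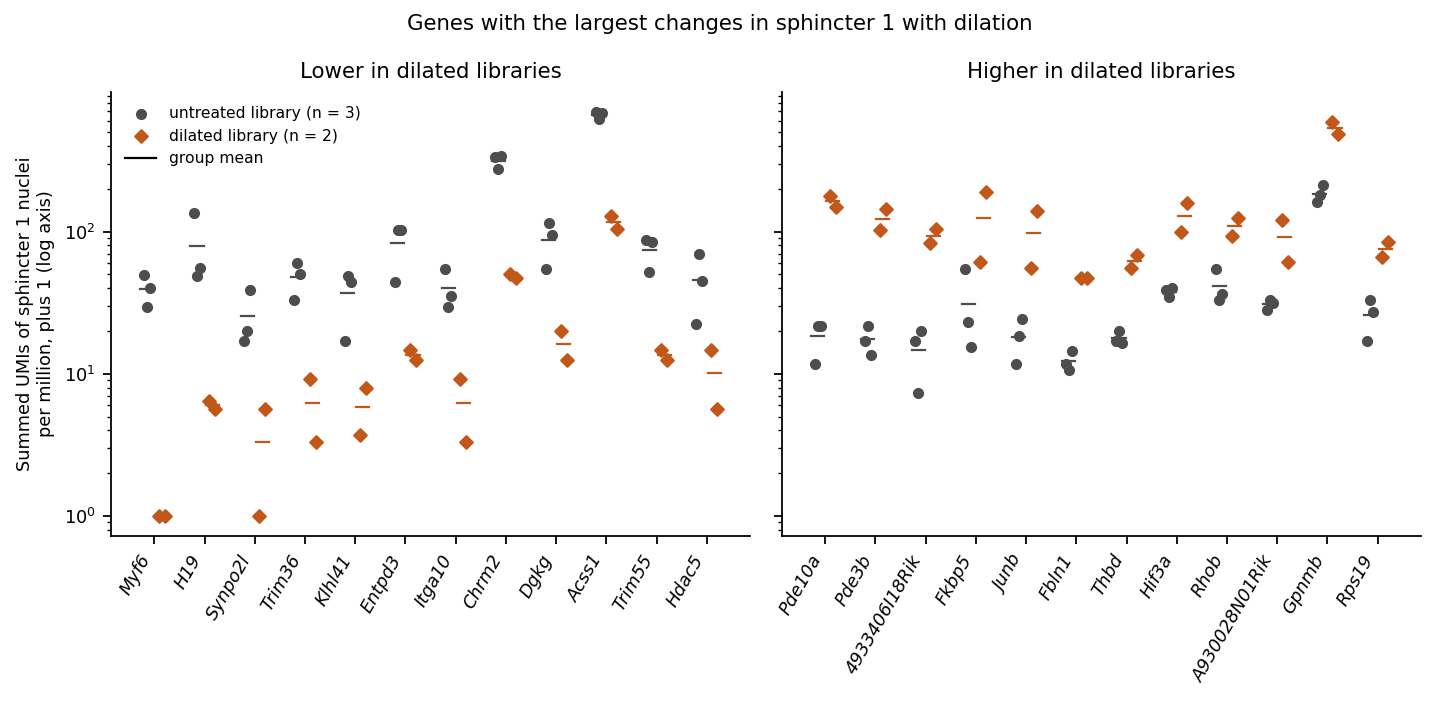
Level in sphincter 1 (CPM plus 1, log axis) for the 12 genes with the largest decrease (left) and the 12 with the largest increase (right) among called genes. Circles are the 3 untreated libraries, diamonds the 2 dilated libraries and bars the group means. The groups do not overlap for any of these genes, as their selection required, and *Myf6* is at 0 UMIs in both dilated libraries.

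Of the receptors for the neurotransmitters and drugs, the M2 receptor transcript *Chrm2* fell in sphincter 1 and the M3 receptor transcript *Chrm3* did not pass the test. *Chrm2* (chromosome 6 from 36388084 to 36528414, mm10) was at 333, 274 and 338 CPM in the untreated libraries and at 49.1 and 46.2 CPM in the dilated libraries. Both dilated libraries were far below the lowest untreated one. The log2 fold change was -2.68 ± 0.32 (SE, adjusted p = 4.33e-05), a 6.40-fold decrease, and leaving out any 1 library gave -2.75 to -2.59. The constricted libraries, at 326, 466 and 209 CPM, were also above both dilated ones. *Chrm3*, at 4086, 3787 and 4001 CPM in untreated and 5203 and 3971 CPM in dilated libraries, gave 0.25 ± 0.22 (adjusted p = 0.807), and the groups overlapped. *Adra1a*, the alpha1A-adrenergic receptor, was low and variable at 5.38, 12.8 and 48.7 CPM against 49.1 and 18.5 CPM (adjusted p = 0.977). Of 14 receptor genes on the list, 13 are in the files and only these 3 had enough UMIs to be tested. *Adra1b*, with 30 UMIs in the 5 libraries, was among those not tested.

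Downstream of the receptors, 5 of 28 tested genes of Gq and inositol lipid signalling were called lower (all genes tested, 1.32%) and none higher. The list median was -0.26 against -0.0022 for all genes tested. This list and those below were chosen with earlier results of these data known. Such a choice favours counts and medians away from those of all genes, so they describe the lists only. Diacylglycerol kinases, which turn the second messenger diacylglycerol into phosphatidic acid, gave 2 of the 5. *Dgkg* was at 53.8, 113 and 93.9 CPM in untreated and 19.1 and 11.5 CPM in dilated libraries, a log2 fold change of -2.59 ± 0.40 (adjusted p = 8.82e-04). *Dgkb* was more abundant, at 763, 379.5 and 443 CPM and 161 and 129 CPM, and changed by -1.78 ± 0.32 (adjusted p = 0.00351). The highest untreated value of *Dgkb* was in replicate 1, and the groups did not overlap. *Inpp4a* and *Inpp5a*, phosphatases that remove phosphate from inositol lipids and inositol phosphates, had log2 fold changes of -1.60 and -1.06. *Rgs7*, a regulator that speeds the turn-off of Gi and Go proteins, fell from 199, 126 and 107 CPM to 40.9 and 27.7 CPM, a change of -1.92 ± 0.37 (adjusted p = 0.00541). Without dilated replicate 2, the calls of *Dgkb* (-1.65), *Inpp4a* (-1.21) and *Rgs7* (-1.68) were lost, and *Inpp5a* was not called with any 1 library left out (-1.31 to -0.81).

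Of 35 tested genes for calcium stores, channels and pumps, 7 were called lower (all genes tested, 1.32%) and none higher. A positive log2 fold change was found for 14 of the 35, and the list median was -0.34. Several of the 7 called genes belong to the junction between the cell membrane and the sarcoplasmic reticulum. *Stac*, an adaptor of L-type calcium channels, was at 656, 526 and 651 CPM in untreated and 213 and 136 CPM in dilated libraries (-1.78 ± 0.25, adjusted p = 3.96e-04). *Akap6*, which anchors protein kinase A near ryanodine receptors in muscle, dropped from 392, 322 and 359 CPM to 84.5 and 57.7 CPM (-2.29 ± 0.30, adjusted p = 1.44e-04). For both genes the dilated libraries lay far below the lowest untreated one. *Casq2*, the calcium-binding protein of the store, was at 86.0, 87.7 and 112 CPM and 21.8 and 32.3 CPM (-1.80 ± 0.34, adjusted p = 0.00541). Also called lower were *Jph2* (log2 fold change -0.98), which holds both membranes together, the store potassium channel *Tmem38a* (-1.14) and the calcium pump *Atp2a2* (-0.97). *Atp2a2* was at 866, 855 and 818 CPM in the untreated and 425 and 413 CPM in the dilated libraries. The *Casq2* call was lost without untreated replicate 3 (-1.60) or dilated replicate 1 (-1.51). *Jph2* (-1.23 to -0.73) and *Atp2a2* (-0.98 to -0.94) were not called with any 1 library left out. The *Tmem38a* call was kept only without untreated replicate 1 (-1.26).

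Transcripts of striated muscle proteins showed the lowest median of the 13 pathway lists. Of 80 listed members, 70 are in the files and 23 had enough UMIs to be tested. Of the 23 tested members, 8 were called lower (all genes tested, 1.32%), none higher, and the median log2 fold change was -0.79. A low member can pass the filter on low counts through the libraries of 1 group alone, so the median of any list depends partly on the filter. *Ttn*, which encodes the giant spring protein titin (chromosome 2 from 76703980 to 76982547), was at 2038, 1325 and 1687 CPM in untreated and 393 and 510.0 CPM in dilated libraries. Both dilated libraries were below all untreated ones. The change was -1.84 ± 0.27 (adjusted p = 4.99e-04), a 3.59-fold decrease, and the constricted libraries were at 1777, 3159 and 2468 CPM. At least 1 *Ttn* UMI was present in 68.0%, 69.0% and 75.8% of the untreated and in 53.4% and 62.1% of the dilated sphincter 1 nuclei. After thinning to 1000 UMIs per nucleus the shares were 64.0%, 54.7% and 64.1% against 29.7% and 33.3%, with 0, 3 and 1 untreated and 2 and 3 dilated nuclei left out as shallower. In dilator muscle, which should lack the transcript, the thinned share was at most 1.75% in any of the 5 libraries, at median depths per library of 3344.5 to 3926.0 UMIs, compared with 3034 to 3814.5 UMIs in sphincter 1.

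The other striated muscle genes called lower were less abundant. *Myl1*, a myosin light chain of fast skeletal muscle, was at 69.9, 68.6 and 105 CPM and 19.1 and 16.2 CPM (-2.24 ± 0.43, adjusted p = 0.00542). *Trim55*, a ubiquitin ligase of the titin kinase region, was at 86.0, 51.0 and 84.0 CPM and 13.6 and 11.5 CPM (-2.47 ± 0.50, adjusted p = 0.00883), and *Klhl41*, a sarcomere-associated Kelch protein, at 16.1, 47.8 and 43.3 CPM and 2.73 and 6.92 CPM (-2.93 ± 0.63, adjusted p = 0.0141). *Synpo2l*, an actin-bundling protein of the Z disc, rested on 59 UMIs in the 5 libraries and had a change of -3.31 ± 0.85 (adjusted p = 0.0427). *Dmpk* (-1.57), *Cmya5* (-1.41) and the Z disc protein *Ldb3* (-1.29) completed the 8. Without dilated replicate 1, *Dmpk* (-1.40) and *Ldb3* (-1.37) lost their calls, without dilated replicate 2 *Ldb3* (-1.18) and *Cmya5* (-1.08), and *Cmya5* also without untreated replicate 2 (-1.31) or 3 (-1.48). The muscle creatine kinase *Ckm*, at 37.6, 89.3 and 83.0 CPM and 38.2 and 60.0 CPM, did not pass (-0.60, adjusted p = 0.582). *Myf6*, a myogenic transcription factor that is on none of the lists, had 70 UMIs in the untreated libraries (48.4, 28.7 and 38.8 CPM) and 0 UMIs in both dilated libraries. Taking 3 UMIs over the dilated group as the floor, this is an at least 9.72-fold lower level (adjusted p = 0.00337). The calls of *Myl1*, *Trim55* and *Klhl41* were lost without untreated replicate 3, dilated replicate 1 or dilated replicate 2, with log2 fold changes that stayed at or below -1.90. That of *Klhl41* was also lost without untreated replicate 2 (-2.72). The call of *Myf6* was lost without dilated replicate 2 (adjusted p = 0.0539). *Synpo2l* was called only with all libraries or without untreated replicate 1, and had an adjusted p of 0.119 without dilated replicate 2.

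**Figure D2:**
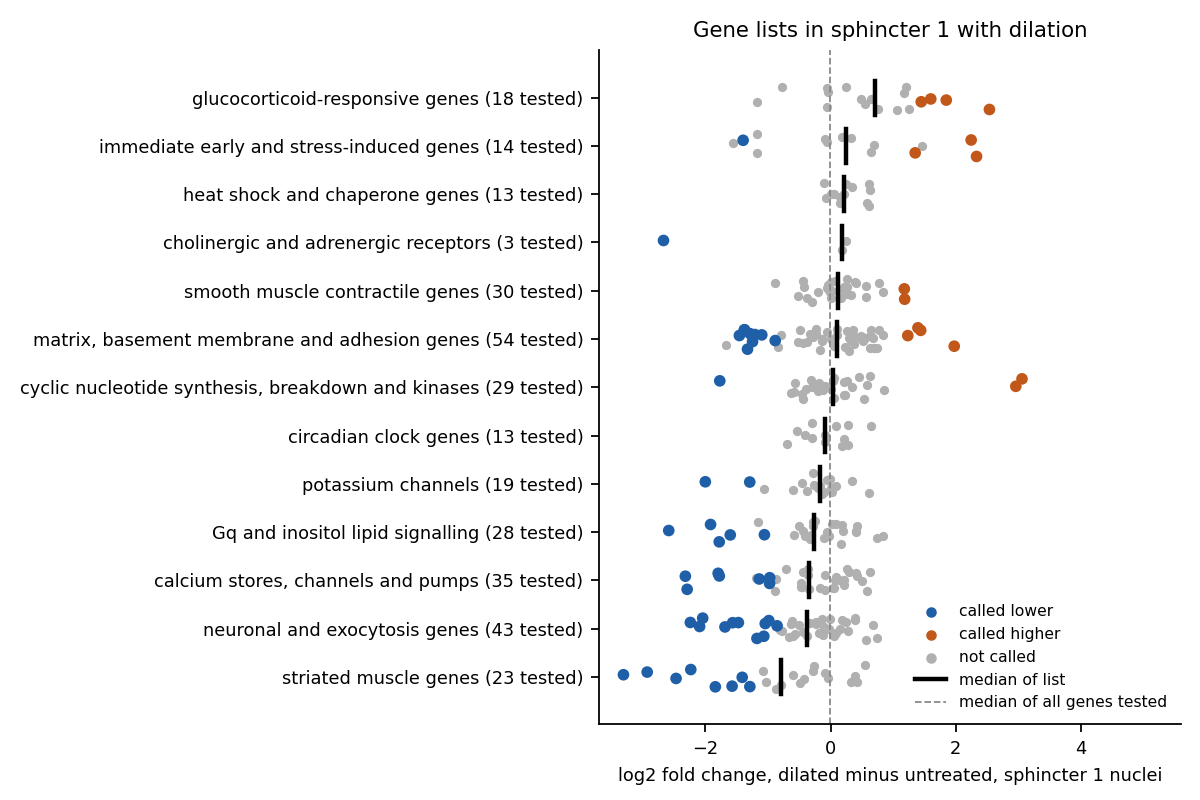
Log2 fold change of dilated over untreated sphincter 1 (x axis) for each tested member of the 13 pathway lists (y axis, ordered by median). Coloured points are genes called lower or higher, grey points are not called, black bars are list medians and the dashed line is the median of all 7112 genes tested. The striated muscle list has the lowest median, -0.79, and the glucocorticoid-responsive list the highest, 0.71.

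Of 30 tested smooth muscle contractile genes, none was called lower and 2 were called higher (all genes tested, 1.32% and 0.633%). Both called genes encode actin-associated proteins. *Tagln* (transgelin) was at 898, 679 and 663 CPM in untreated and 1538 and 1708 CPM in dilated libraries (1.18 ± 0.22, adjusted p = 0.00479). *Csrp1*, a LIM protein of smooth muscle, was at 435, 381 and 319 CPM and 704 and 937 CPM (1.18 ± 0.24, adjusted p = 0.00765). Both calls were lost without untreated replicate 3 (1.12 and 1.08) or dilated replicate 2 (1.07 and 0.93). The smooth muscle myosin heavy chain *Myh11*, at 3193, 2966 and 2660.2 CPM and 3624 and 2995 CPM, and smooth muscle actin *Acta2*, at 1634, 1158 and 1138 CPM and 1077 and 1357 CPM, overlapped between the groups (0.21, adjusted p = 0.822, and -0.05, adjusted p = 0.99).

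Of 43 tested neuronal and exocytosis genes, 11 were called lower (all genes tested, 1.32%), none higher, and the median was -0.38. The choice of this list with earlier results known favours such a count. *Serpini1* (neuroserpin, an inhibitor of tissue plasminogen activator) was at 188, 119.6 and 192 CPM in untreated and 35.5 and 32.3 CPM in dilated libraries (-2.24 ± 0.33, adjusted p = 5.51e-04). *Cntn3*, a contactin of the immunoglobulin family, was at 349, 295 and 369 CPM and 60.0 and 96.9 CPM (-2.04 ± 0.35, adjusted p = 0.00266), and the constricted libraries were higher than both groups at 513, 1313 and 839 CPM. The splicing factor *Rbfox1* (-2.09), the Purkinje cell protein relative *Pcp4l1* (-1.69), the postsynaptic scaffold *Dlgap1* (-1.57) and the adhesion proteins *Lrrc4c* (-1.18) and *Lrrtm3* (-1.04) were also called lower. The most abundant member, the vesicle calcium sensor *Syt1*, was at 4855, 4211 and 4425 CPM and 4737 and 4559.9 CPM and did not pass (0.09, adjusted p = 0.956). *Rbfox3* (892, 713 and 699 CPM and 744 and 524 CPM, adjusted p = 0.837) and *Nptx2* (124, 112 and 100.2 CPM and 147 and 166 CPM, adjusted p = 0.381) did not pass either. *Cntn3* lost its call without dilated replicate 1 (-1.70), and *Rbfox1* without untreated replicate 3 (-1.99) or dilated replicate 2 (-1.37). *Lrrc4c* and *Lrrtm3* lost theirs without untreated replicate 3 (-1.17 and -0.95) or dilated replicate 1 (-0.98 and -1.08), and *Lrrtm3* also without dilated replicate 2 (-0.98).

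Of 19 tested potassium channel genes, 2 were called lower (all genes tested, 1.32%). *Kcnma1*, the pore of the large-conductance calcium-activated channel that limits smooth muscle contraction, was at 1538, 818 and 918 CPM in untreated and 458 and 395 CPM in dilated libraries (-1.29 ± 0.30, adjusted p = 0.0234). Its untreated values spread widely, with replicate 1 well above the others, and the call was kept only without untreated replicate 2 (-1.44, adjusted p = 0.0217) among the 5 leave-outs. The voltage-gated channel *Kcna4* rested on 77 UMIs (-2.00 ± 0.48, adjusted p = 0.0268) and kept its call only without untreated replicate 1.

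*Acss1*, the mitochondrial enzyme that activates acetate to acetyl-CoA, had a 5.59-fold decrease. It was at 694, 619 and 682 CPM in untreated and 128 and 104 CPM in dilated libraries (-2.48 ± 0.24, adjusted p = 4.44e-06). The constricted libraries were at 1076, 1223 and 902 CPM, above all untreated ones, so the groups formed 3 separate ranges. *Klhl7*, a substrate adaptor of a ubiquitin ligase that was singled out after its values were seen, was at 414, 403 and 391 CPM and 81.8 and 69.2 CPM (-2.38 ± 0.24, adjusted p = 4.52e-06). *Entpd3*, an ectoenzyme that breaks down extracellular nucleotides, was at 43.0, 102 and 101.1 CPM and 13.6 and 11.5 CPM (-2.80 ± 0.44, adjusted p = 8.82e-04). These 3 genes were called with each library left out.

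The remaining genes with the largest decreases were less abundant. *H19*, an imprinted noncoding RNA, was at 134, 47.8 and 54.2 CPM in untreated and 5.45 and 4.62 CPM in dilated libraries (-3.60 ± 0.69, adjusted p = 0.00541). *Itga10*, an integrin subunit, was at 53.8, 28.7 and 34.3 CPM and 8.18 and 2.31 CPM (-2.71 ± 0.59, adjusted p = 0.0146). *Hdac5*, a histone deacetylase that represses muscle genes, was at 21.5, 68.6 and 44.2 CPM and 13.6 and 4.62 CPM (-2.43 ± 0.53, adjusted p = 0.0155), and *Trim36*, a ubiquitin ligase, at 32.3, 59.0 and 49.6 CPM and 8.18 and 2.31 CPM (-3.22 ± 0.61, adjusted p = 0.0049). Each of these 4 calls was lost without dilated replicate 2 (-3.50, -2.06, -1.84 and -2.58 on the log2 scale). *H19* also lost its call without dilated replicate 1 (-3.64), *Itga10* without untreated replicate 3 (-2.73), and *Hdac5* without untreated replicate 2 (-2.02) or 3 (-2.48).

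Among genes of cyclic nucleotide synthesis, breakdown and kinases, 2 phosphodiesterases rose and 1 guanylyl cyclase subunit fell of 29 tested. The shares of all genes tested were 0.633% called higher and 1.32% called lower. *Pde10a* (chromosome 17 from 8525372 to 8986648), which degrades cAMP and cGMP, had the largest increase among called genes: 10.8, 20.7 and 20.8 CPM in untreated and 177 and 148 CPM in dilated libraries (3.06 ± 0.31, adjusted p = 4.44e-06). *Pde3b*, a cAMP phosphodiesterase that cGMP inhibits, was at 16.1, 20.7 and 12.6 CPM and 100.9 and 143 CPM (2.96 ± 0.35, adjusted p = 4.33e-05). The noncoding RNA gene *4933406I18Rik*, whose start lies 120 bases from that of *Pde3b* on the opposite strand of chromosome 7, was at 16.1, 6.38 and 19.0 CPM and 81.8 and 104 CPM (2.72 ± 0.43, adjusted p = 9.02e-04). *Gucy1a1*, a subunit of the nitric oxide receptor that makes cGMP, was at 48.4, 116 and 80.3 CPM and 24.5 and 25.4 CPM (-1.77 ± 0.38, adjusted p = 0.0128). Among phosphodiesterases of higher level, *Pde4d* at 2569.8, 2258 and 2239 CPM and 3365 and 3263 CPM (0.53, adjusted p = 0.222) and *Pde1c* at 1236, 959.9 and 939.7 CPM and 1126 and 944 CPM (0.03, adjusted p = 0.993) did not pass. *Pde3b* was called with each library left out and missed the threshold after thinning to 1000 UMIs per nucleus (2.57). The *4933406I18Rik* call was lost without dilated replicate 2 (2.51), and the *Gucy1a1* call was kept only without untreated replicate 1.

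*Pde10a* and *Pde3b* were also at higher levels in other cell types of the dilated libraries. *Pde10a* was at 85.1 and 124 CPM in endothelial cells and at 241 and 79.3 CPM in leukocytes, levels like those in sphincter 1. All other types were above sphincter 1 in both dilated libraries. Levels were 393 and 392 CPM in sphincter 2, 383 and 296 CPM in pigment epithelium, and 774 and 540 CPM in stroma 1. Stroma 2 was at 260 and 283 CPM, the ciliary body at 3485 and 990 CPM and its epithelium at 1113 and 313 CPM. Dilator muscle was at 1305 and 1338 CPM. The dilator muscle supplied 2567 and 1306 nuclei of these libraries, and the part of its free RNA in the sphincter 1 value was not tested. *Pde3b* was at 81.5 and 187 CPM in dilated sphincter 2, 60.1 and 102 CPM in dilator muscle and 82.0 and 131 CPM in the ciliary body, levels like those in sphincter 1. It was at 5.57 and 3.33 CPM in stroma 1 of the dilated libraries and at 7.09 and 0 CPM in endothelial cells, below its level in sphincter 1, while leukocytes were highest at 1194 and 1347 CPM.

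Of 14 tested immediate early and stress-induced genes, 3 were called higher and 1 lower (all genes tested, 0.633% and 1.32%). The 3 higher genes all encode subunits of the AP-1 transcription factor. *Junb* was at 10.8, 17.5 and 23.5 CPM in untreated and 54.5 and 138 CPM in dilated libraries (2.33 ± 0.39, adjusted p = 0.00194). *Jun* was at 43.0, 11.2 and 9.93 CPM and 40.9 and 92.3 CPM (2.25 ± 0.53, adjusted p = 0.0234), with dilated replicate 1 just below untreated replicate 1. *Jund* was at 26.9, 35.1 and 41.5 CPM and 68.2 and 115 CPM (1.35 ± 0.35, adjusted p = 0.0416). For all 3, dilated replicate 2 was the highest library. Between the libraries whose titles carry consecutive numbers, the log2 ratio of *Jun* was -0.21 for dilated against untreated replicate 1 and 2.90 for dilated replicate 2 against the mean of untreated replicates 2 and 3. *Zfp36l1*, which promotes decay of AU-rich mRNAs, fell from 151, 148 and 172 CPM to 57.3 and 60.0 CPM (-1.40 ± 0.27, adjusted p = 0.00544). *Btg2* reached 32.7 and 94.6 CPM from 37.6, 15.9 and 26.2 CPM and did not pass (1.47, adjusted p = 0.0797). *Egr1*, *Slc26a4* and *Tmem158* had 24, 15 and 33 UMIs in the 5 libraries and were not tested, and *Anks1b* (21.5, 23.9 and 31.6 CPM and 84.5 and 41.5 CPM) did not pass (adjusted p = 0.142). Without dilated replicate 2 the calls of *Junb* (1.46), *Jun* (1.40), *Jund* (0.87) and *Zfp36l1* (-1.47) were lost. The *Jun* call was also lost without untreated replicate 2 (2.03) or 3 (1.78), the *Zfp36l1* call without untreated replicate 3 (-1.28) or dilated replicate 1 (-1.31), and the *Jund* call was kept only without dilated replicate 1 (1.71).

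Glucocorticoid-responsive genes had the highest median of the 13 lists, 0.71, with 4 of 18 tested genes called higher (all genes tested, 0.633%), none lower. *Fkbp5*, a chaperone of the glucocorticoid receptor, was at 53.8, 22.3 and 14.4 CPM in untreated and 60.0 and 189 CPM in dilated libraries (2.54 ± 0.50, adjusted p = 0.00611). The value of dilated replicate 1 was close to that of untreated replicate 1, so the log2 ratio between these libraries was 0.02, while dilated replicate 2 stood 3.25 above the mean of untreated replicates 2 and 3. In iris pigment epithelium of the same libraries *Fkbp5* was at 71.0, 19.9 and 11.9 CPM untreated and 105 and 394 CPM dilated, with the same order of libraries. *Hif3a*, a hypoxia-inducible factor subunit, was at 37.6, 33.5 and 38.8 CPM and 98.2 and 159 CPM (1.85 ± 0.30, adjusted p = 0.00121). *Rhob*, a small GTPase, was at 53.8, 31.9 and 35.2 CPM and 92.7 and 125 CPM (1.60 ± 0.31, adjusted p = 0.00542), and *Txnip*, an inhibitor of thioredoxin, at 86.0, 113 and 214 CPM and 325 and 473 CPM (1.45 ± 0.31, adjusted p = 0.0118). All 4 calls were lost without dilated replicate 2 (1.42, 1.41, 1.33 and 1.10). *Rhob* and *Txnip* also lost theirs without untreated replicate 2 (1.50 and 1.32), and *Fkbp5* and *Rhob* without untreated replicate 3 (2.05 and 1.54). No gene of the circadian clock list (13 tested, 23 listed) or the heat shock and chaperone list (13 tested, 26 listed) was called, and the medians were -0.08 and 0.22. With 0.633% of all genes tested called higher and 1.32% lower, lists of this size can hold no call without being set apart.

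Of 54 tested matrix, basement membrane and adhesion genes, 4 were called higher and 9 lower (all genes tested, 0.633% and 1.32%). The 4 called higher were *Fbln1*, *Pappa*, *Fn1* and *Sparc*. *Fbln1* (fibulin-1) was at 10.8, 9.57 and 13.5 CPM in untreated and 46.4 and 46.2 CPM in dilated libraries (1.98 ± 0.50, adjusted p = 0.0405), and *Pappa*, a protease that frees insulin-like growth factor, at 113, 113 and 103 CPM and 314 and 249 CPM (1.40 ± 0.33, adjusted p = 0.0268). Fibronectin (*Fn1*, 1.44) overlapped between the groups, and *Sparc* had a change of 1.23. The lower ones included the basement membrane chains *Col4a6* (-1.21) and *Lama3* (-1.10), the protease *Adamts5* (-1.29) and the heparan sulfatase *Sulf1* (-1.33). *Sparcl1*, a relative of *Sparc*, moved the opposite way, from 296, 349 and 347 CPM to 112 and 125 CPM (-1.46 ± 0.26, adjusted p = 0.00285). The calls of *Fbln1*, *Pappa* and *Fn1* were kept only without untreated replicate 1, and that of *Sparcl1* was lost without dilated replicate 1 (-1.33). Each of *Sparc*, *Adamts5*, *Sulf1*, *Col4a6* and *Lama3* lost its call without untreated replicate 3 (1.23, -1.21, -1.39, -1.28 and -1.04), *Sparc* and *Col4a6* without dilated replicate 1 (1.09 and -1.09), and *Adamts5*, *Sulf1*, *Col4a6* and *Lama3* without dilated replicate 2 (-1.20, -0.98, -1.31 and -0.70). *Col4a6* and *Lama3* also lost theirs without untreated replicate 1 (-1.003 and -1.06), and *Lama3* without untreated replicate 2 (-1.16).

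Of the other genes with the largest increases, *Gpnmb*, a membrane glycoprotein of pigment cells and macrophages, was the most abundant. It was at 161, 179 and 210.3 CPM in untreated and 589 and 485 CPM in dilated libraries (1.54 ± 0.28, adjusted p = 0.00433). In dilator muscle of these libraries it was at 1843, 1944 and 2052 CPM untreated and 7086 and 7431 CPM dilated, and the part of dilator muscle RNA or of the pigment epithelium markers above in the sphincter 1 value was not tested. *Thbd* (thrombomodulin) was at 16.1, 19.1 and 15.3 CPM and 54.5 and 66.9 CPM (1.88 ± 0.43, adjusted p = 0.022), the antisense gene *A930028N01Rik* at 26.9, 31.9 and 30.7 CPM and 120.0 and 60.0 CPM (1.55 ± 0.34, adjusted p = 0.0151), and the ribosomal protein gene *Rps19*, which has pseudogene copies, at 16.1, 31.9 and 26.2 CPM and 65.5 and 83.1 CPM (1.50 ± 0.34, adjusted p = 0.0216). *Thbd*, *A930028N01Rik* and *Rps19* each lost their call without untreated replicate 3 (1.77, 1.58 and 1.49) and without untreated replicate 2 (2.01, 1.61 and 1.69). Without dilated replicate 1, *Thbd* (2.06) and *A930028N01Rik* (1.05) lost theirs, and without dilated replicate 2, *Thbd* (1.68) and *Rps19* (1.27).

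The promoters of called genes were searched for motifs of factors that act in muscle or in the induced groups: the CArG box of serum response factor, the palindromic glucocorticoid response element (GNACANNNTGTNC), the AP-1 site (TGANTCA) and the cAMP response element (TGACGTCA), on either strand. RefSeq promoters of 300 bases (250 before to 50 after the start, GRCm38.p6) were found for 32 of the 45 higher and 69 of the 94 lower genes. A CArG box was in 1 of 32 and 1 of 69 genes, compared with 1.81% of the 27025 genes with a promoter. A glucocorticoid response element was in 2 and 1 (all genes, 0.537%), an AP-1 site in 1 and 6 (8.97%), and a cAMP response element in 0 and 1 (2.03%). Of the 12 genes with the largest change in each direction, 9 and 8 had a promoter, and *Gpnmb* and *Entpd3*, each with an AP-1 site, were the ones that held any of the 4 motifs. A promoter that holds each of the first 3 motifs is given for a called gene, with that of *Ctnna3* for a response element in a lower gene. The motifs are in capitals and do not overlap each other. They run 5′ to 3′ on the strand of the gene.
Txnip (chr3:96557707-96558006, plus strand), higher, glucocorticoid response element: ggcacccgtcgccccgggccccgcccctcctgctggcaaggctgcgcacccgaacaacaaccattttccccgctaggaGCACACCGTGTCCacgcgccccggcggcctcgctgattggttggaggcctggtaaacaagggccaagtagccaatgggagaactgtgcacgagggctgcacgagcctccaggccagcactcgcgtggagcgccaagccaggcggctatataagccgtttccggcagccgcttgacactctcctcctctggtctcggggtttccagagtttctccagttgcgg
Gpnmb (chr6:49036268-49036567, plus strand), higher, AP-1 site: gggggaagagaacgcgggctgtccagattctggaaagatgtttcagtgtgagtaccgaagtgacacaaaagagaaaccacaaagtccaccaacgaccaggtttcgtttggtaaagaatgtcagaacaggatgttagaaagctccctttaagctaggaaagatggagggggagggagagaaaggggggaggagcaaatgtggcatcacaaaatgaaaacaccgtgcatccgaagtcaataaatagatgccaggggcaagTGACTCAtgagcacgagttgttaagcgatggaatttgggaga
Ldb3 (chr14:34588632-34588931, minus strand), lower, AP-1 site and CArG box: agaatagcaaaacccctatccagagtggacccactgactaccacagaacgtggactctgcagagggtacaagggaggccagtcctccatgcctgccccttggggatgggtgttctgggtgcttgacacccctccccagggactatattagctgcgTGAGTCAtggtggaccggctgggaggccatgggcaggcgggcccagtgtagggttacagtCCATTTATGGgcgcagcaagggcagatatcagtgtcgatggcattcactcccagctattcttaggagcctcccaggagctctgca
Ctnna3 (chr10:63820805-63821104, plus strand), lower, glucocorticoid response element: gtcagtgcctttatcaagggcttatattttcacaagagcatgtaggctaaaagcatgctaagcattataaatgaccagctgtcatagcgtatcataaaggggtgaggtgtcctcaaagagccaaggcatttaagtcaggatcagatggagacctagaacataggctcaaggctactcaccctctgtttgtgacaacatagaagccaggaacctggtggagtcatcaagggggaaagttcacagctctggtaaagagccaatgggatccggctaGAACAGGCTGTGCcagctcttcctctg
*Ctnna3* (alpha-T-catenin, a link of cell junctions to actin in muscle) has several annotated starts, and the window shown is the one that held a match. It was at 1505, 1394 and 1411 CPM in untreated and 545 and 586 CPM in dilated libraries (-1.30 ± 0.25, adjusted p = 0.00541), and its call was lost without dilated replicate 1 (-1.19) or 2 (-1.39). These matches describe the letters only, and binding was not measured.

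Whether the response was shared by the other sphincter cells was asked with the 509 sphincter 2 nuclei of the same libraries. In a separate fit, 192 of 6691 genes were called in sphincter 2 (2.87%). The test of the difference, an interaction term with 1 term per library, was passed by 257 of 7719 genes (3.33%, adjusted p under 0.05), 112 with a more positive and 145 with a more negative change in sphincter 1. Of the genes called in sphincter 1, 16 of 45 higher and 38 of 94 lower genes were among them. These genes were chosen for their change in sphincter 1, which is part of the interaction term. The choice therefore favours a share above that of all genes. Without dilated replicate 2 the interaction was passed by 120 genes, without dilated replicate 1 by 126 and without untreated replicate 3 by 154.

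For 5 genes called lower in sphincter 1, the change in sphincter 2 was called higher, and *Acss1* and *Kcnma1* of these are on the list of 19 sphincter 1 markers. *Acss1* was at 109.9, 135 and 149.7 CPM in untreated and 437 and 419 CPM in dilated sphincter 2, where it rose (log2 fold change 1.71, adjusted p = 7.73e-06), while it fell in sphincter 1. The difference in log2 fold change, sphincter 1 minus sphincter 2, was -4.18 ± 0.26 (edgeR interaction test, adjusted p = 1.67e-18). After dilation, *Acss1* was higher in sphincter 2 than in sphincter 1 in both libraries, the reverse of the untreated order. *Kcnma1* likewise rose in sphincter 2 from 82.5, 97.8 and 91.9 CPM to 263 and 293 CPM (1.66, adjusted p = 8.49e-05), with a difference of -2.78 ± 0.26 (adjusted p = 1.60e-11). The other 3, which are not on that list, were, with the log2 fold change in sphincter 1 and then in sphincter 2, *Atp2a2* (-0.97 and 0.92), *Dmpk* (-1.57 and 1.08) and *Sulf1* (-1.33 and 0.98). Conversely, *Sybu* (0.88 and -1.47), *Hunk* (1.20 and -1.06) and *Pld5* (1.10 and -0.79) were called higher in sphincter 1 and lower in sphincter 2. The sphincter 1 calls of *Sybu* (0.84 to 0.95) and *Hunk* (1.16 to 1.27) were lost with any 1 library left out, and that of *Pld5* was kept only without dilated replicate 2. The cell type labels were assigned by clustering of the same transcripts, and the part of the border between the types was not tested. In a sum over both sphincter types, *Acss1* was lower (-0.83, adjusted p = 0.0296), and *Kcnma1* did not pass (-0.85, adjusted p = 0.194). Opposite changes in the 2 types offset each other in the sum. Neither a kept nor a lost call there was read as a result about the border.

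**Figure D3:**
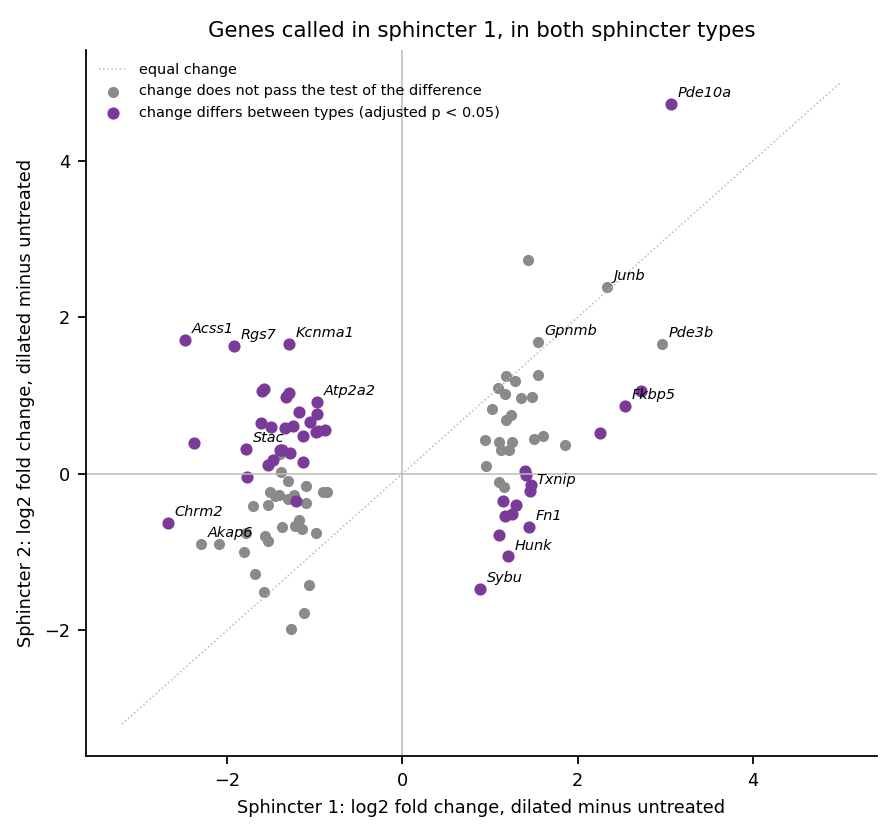
Log2 fold change of dilated over untreated in sphincter 1 (x axis) and in sphincter 2 (y axis) for genes called in sphincter 1 that were also tested in sphincter 2. Purple points passed the interaction test at an adjusted p under 0.05, grey points did not, and the dotted line marks equal change. *Acss1* and *Kcnma1* lie in the quadrant of genes lower in sphincter 1 and higher in sphincter 2, and *Pde10a* lies above the dotted line.

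The decrease of *Chrm2* was larger in sphincter 1. In sphincter 2, *Chrm2* was at 211, 194 and 181 CPM untreated and 159 and 78.4 CPM dilated (-0.63, adjusted p = 0.366), and the difference was -2.03 ± 0.35 (edgeR interaction test, adjusted p = 5.43e-05). In dilator muscle it was called lower (-1.13, adjusted p = 0.00461), from 675, 579 and 635 CPM to 293 and 213 CPM. Dilator muscle was the highest of the 3 types in each library, and sphincter 1 stood above sphincter 2 in the untreated libraries and below it in the dilated ones. *Chrm3* passed the interaction test against sphincter 2 (0.71 ± 0.19, adjusted p = 0.0202), although its own change did not pass in either type. *Stac* (-2.07 ± 0.31), *Inpp4a* (-2.66 ± 0.41) and *Rgs7* (-3.44 ± 0.50) also changed more negatively in sphincter 1 than in sphincter 2, with adjusted p-values of 3.97e-06, 7.20e-06 and 2.14e-06 in the same test. *Ttn* was too low for a test of its own in sphincter 2, at 9.16, 4.16 and 11.9 CPM and 7.41 and 10.2 CPM.

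Some changes had the same direction in both types. Of the 41 higher genes that were tested in sphincter 2, 9 were called higher there and 3 lower. Among the 9 were *Junb* (2.38), *Pde3b* (1.65), *Csrp1* (1.25), *Gpnmb* (1.68) and *Aqp1* (2.73). Of the 60 lower genes tested there, 5 were called higher and only 3 lower: *Sntg1* (-1.42), *3632451O06Rik* (-1.98) and *Fat3* (-1.78). Of all genes tested in sphincter 2, 2.87% were called in either direction, and the share for each direction is not given here. In sphincter 1, *Aqp1*, *3632451O06Rik* and *Fat3* were called only with all libraries or without untreated replicate 1, and *Sntg1* also without untreated replicate 2. *Pde10a* rose more in sphincter 2 (4.72, interaction -1.67 ± 0.50, adjusted p = 0.0441). *Txnip* (1.65 ± 0.28, adjusted p = 3.73e-05) and *Fkbp5* (1.70 ± 0.41, adjusted p = 0.00717) changed more positively in sphincter 1 by the same interaction test.

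Against dilator muscle, the antagonist in the same irises (8230 nuclei in the 5 libraries), the dilation effect differed for 876 of 13060 genes (6.71%). In its own fit, dilator muscle had 2054 of 15395 genes called (13.3%), from 1604121 to 10129055 UMIs per library, so its calls reach smaller changes and lower levels than those of sphincter 1. Of the genes called in sphincter 1, 27 of 45 higher and 56 of 94 lower genes passed the test against dilator muscle, which their choice by the sphincter 1 change again favours. The induction of *Pde10a* was smaller in sphincter 1 than in dilator muscle (difference -3.33, adjusted p = 2.79e-11), as were those of *Junb* (-1.73, adjusted p = 5.29e-04) and *Btg2* (-4.05, adjusted p = 1.76e-14), all by edgeR. *Hif3a* (1.85 in sphincter 1 and -0.45 in dilator muscle) and *Txnip* (1.45 and 0.14) rose in sphincter 1 and did not pass in dilator muscle, and both differences passed (adjusted p = 5.31e-10 and 5.80e-07). *Acss1* again moved in opposite directions, with 1.11 in dilator muscle (adjusted p = 0.00111), as did *Stac* (1.05, adjusted p = 0.00615) and *Rgs7* (2.28, adjusted p = 0.00276). Without untreated replicate 3 the count of differing genes was 523, and without dilated replicate 2 it was 574.

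**Figure D4:**
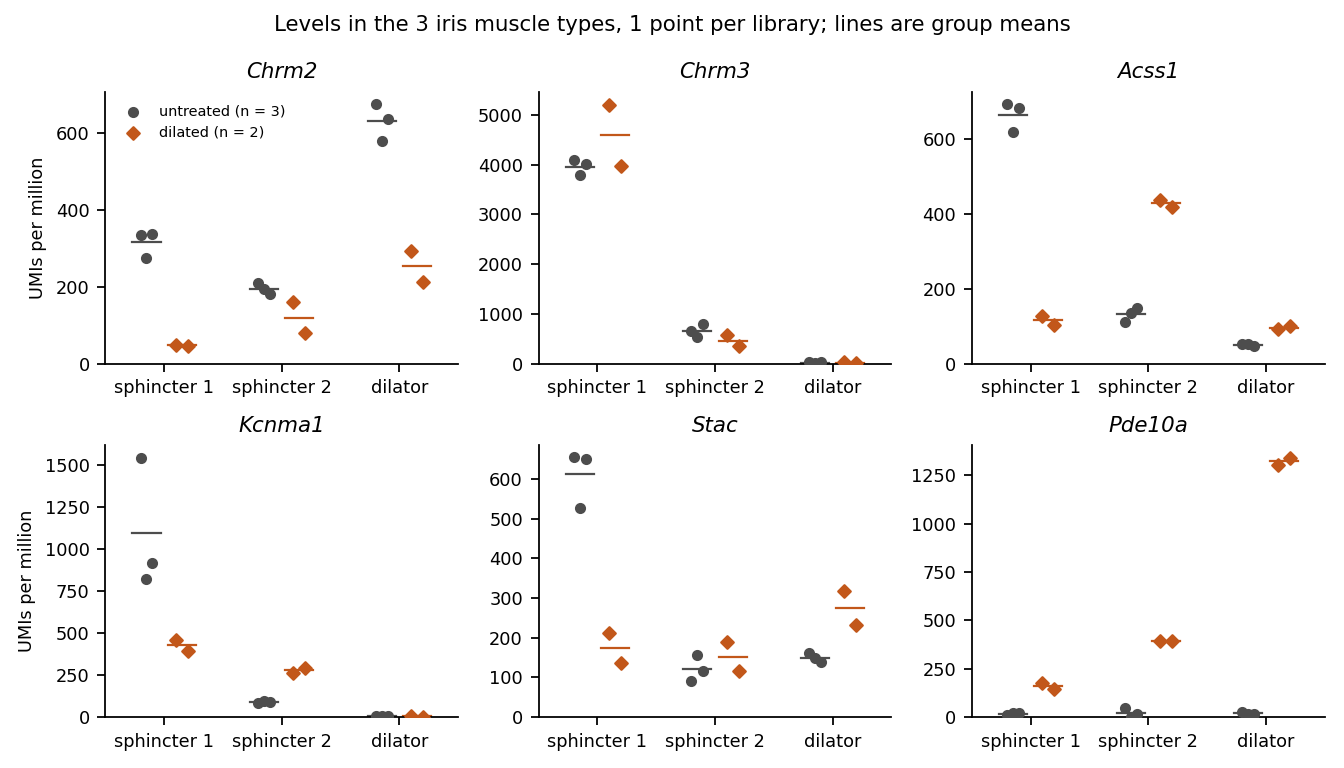
CPM (y axis) in sphincter 1, sphincter 2 and dilator muscle (x axis) for 6 genes, on linear axes that start at 0. Each point is 1 library, circles untreated and diamonds dilated, and lines are group means. *Acss1* and *Kcnma1* fall in sphincter 1 and rise in sphincter 2, *Chrm2* is lower in dilated sphincter 1 and dilator muscle, and *Chrm3* overlaps between the groups in sphincter 1.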

How the data were processed

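Nuclei of mouse irises were profiled on the 10x Chromium platform (3′ gene expression) in 8 libraries: 3 untreated, 3 constricted and 2 dilated. The authors aligned reads to an mm10 index that counts introns with exons, using Cell Ranger 3.1.0, merged the libraries, removed nuclei of high mitochondrial percent or extreme gene number, integrated the data by treatment and clustered them in Seurat. The deposited files hold raw UMI counts per gene and nucleus, the mitochondrial percent of UMIs and an assigned cell type. In the files, nuclei held 500 to 5956 genes and at most 0.991% mitochondrial UMIs. Labels were taken as deposited.

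UMI counts were summed per library over sphincter 1 nuclei and tested in edgeR 4.0.16 (R 4.3.3; TMM, filterByExpr, quasi-likelihood test, all 8 libraries in 1 fit, dilated minus untreated, Benjamini-Hochberg over all genes tested). Log2 fold changes carry a standard error. Differences from sphincter 2 and dilator muscle were interaction terms in fits with a term per library. CPM values use the library sum without TMM. Counts of 0 in a group were set against a floor of 3 UMIs, which covers counting error only. Doublets were called with Scrublet in scanpy 1.11.5. In simulated counts for this comparison (7112 genes), 90.8% of genes changed by 2 on the log2 scale were called, with 12 false calls, 31.8% of those changed by 1, and 0% of those changed by 0.6. Gene positions are from GENCODE release 21 for mouse (GRCm38), promoters from RefSeq.

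Named genes were the 12 with the largest change in each direction among called genes with at least 50 UMIs and the same sign in all 6 pairs of dilated and untreated libraries, up to 4 called members per list, the drug receptors, and genes the study names. Any further gene was singled out after its values were seen. The members and all 13 pathway and 9 marker lists were chosen with earlier results of these data known. Alternatives covered scaling, filters, DESeq2 1.42.0, the libraries fitted, blocks, doublets, depth per nucleus, cluster borders and single libraries. No set test was run. Some items are not reported here.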

Additional observations from a re-analysis of the deposited data

Results flagged for a closer look

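The dilation effect differed between the sphincter types for 21 of the 68 named genes, by the interaction test described above (edgeR, adjusted p under 0.05). Among all genes in that test, 257 of 7719 (3.33%) passed. Most of these were named for their change in sphincter 1, which favours passing this test. The values are differences in log2 fold change, sphincter 1 minus sphincter 2. Genes called lower in sphincter 1 gave the most negative differences: *Klhl41* (-5.10), *Trim36* (-4.78), *Acss1* (-4.18), *Dgkg* (-3.63), *Rgs7* (-3.44), *Casq2* (-3.35), *Kcnma1* (-2.78), *Inpp4a* (-2.66), *Hdac5* (-2.58), *Stac* (-2.07), *Chrm2* (-2.03) and *Zfp36l1* (-1.72). *Pde10a* (-1.67) was higher in both types and less so in sphincter 1. Among genes called higher in sphincter 1, the difference was positive for *Fn1* (2.14), *Jun* (1.76), *Fkbp5* (1.70), *Txnip* (1.65), *4933406I18Rik* (1.64) and *Pappa* (1.27). *Chrm3* (0.71) and *Syt1* (0.65), which were called in neither type, also passed. Several of these genes are low in sphincter 2, where *Klhl41* was at 0, 4.16 and 1.48 CPM untreated and 7.41 and 13.6 CPM dilated, *Dgkg* at 0, 4.16 and 8.90 and 18.5 and 6.81 CPM, *Casq2* at 18.3, 2.08 and 5.93 and 25.9 and 6.81 CPM, and *Trim36* at 0, 2.08 and 2.97 and 0 and 13.6 CPM. With both sphincter types summed, *Klhl41*, *Hdac5*, *Rgs7*, *Kcnma1*, *Fkbp5*, *Zfp36l1*, *Txnip* and *Pappa* were no longer called and *Fn1* changed sign. A sum dilutes or offsets a change that differs between the types. A call lost in it therefore says nothing about the border between the clusters.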

How the results depend on the processing

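The numbers of genes higher (45) and lower (94) were 71 higher with no filter on low counts, 16 higher with the DESeq2 test, 83 higher with the 5 libraries only, 136 higher and 189 lower with the library series as a block, and 15 higher and 44 lower after thinning to 1000 UMIs per nucleus. With 1 library left out they ranged from 8 to 35 higher and from 27 to 82 lower, the genes that differed from sphincter 2 from 120 to 240, and those that differed from dilator muscle from 523 to 911. The causes were not tested. DESeq2 size factors, a minimum of 30 UMIs, leaving out called doublets and summing both sphincter types gave counts within 1.5 times the reported ones. The test of the share of sphincter 1 nuclei cannot reach 0.05 with these libraries. Of 50 named called genes, 11 kept their call and sign in all alternatives that gave them an adjusted p. Calls were lost for 7 of the 28 still tested after thinning (among them *Pde3b*, *Casq2*, *Gucy1a1*, *Zfp36l1*, *Sparcl1* and *Fn1*), for 5 of the 39 to which the DESeq2 test gave an adjusted p (*Fkbp5*, *Rps19*, *Kcna4*, *Jund* and *Fn1*), and for 11 of 50 with both sphincter types summed (*Fkbp5*, *Fbln1*, *Thbd*, *Rps19*, *Klhl41*, *Hdac5*, *Rgs7*, *Kcnma1*, *Zfp36l1*, *Txnip* and *Pappa*), where *Fn1* reversed, to -0.13. With the replicate block, 32 genes were higher and 92 lower, 108 of the 139 calls being kept. The DESeq2 test kept 80 of the 139 calls, and 44 were kept after thinning. Genes no longer tested or without an adjusted p count as not kept there. Deviations of dilated and untreated libraries with the same number correlated at 0.132 (replicate 1) and 0.0846 (replicate 2), and with 2 such pairs the numbers are not shown to pair the libraries. Libraries of different groups with consecutive title numbers correlated at up to 0.302 (constricted 3 and dilated 2) and, in 1 case, as low as 0.00202 (constricted 1 and untreated 1). Leaving out nuclei whose barcode occurs in another library, an alternative chosen after seeing the data, gave 46 higher and 97 lower. A fit without nuclei holding 3 or more UMIs of another cell type's markers, also chosen then, could not be run, since 89.4% to 100% of the nuclei of each library held as many. Depth limits low genes: changes of 1 on the log2 scale were mostly missed in simulation.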

Other observations

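Genes outside the lists also changed in dilated sphincter 1. They were singled out after their values were seen. *Pygm*, muscle glycogen phosphorylase, was at 113, 94.1 and 73.1 CPM in untreated and 32.7 and 32.3 CPM in dilated libraries (-1.39 ± 0.31, SE, edgeR adjusted p = 0.0186). *Phkg1*, the catalytic subunit of muscle phosphorylase kinase, was at 339, 233 and 233 CPM and 136 and 118 CPM (-0.99 ± 0.24, edgeR adjusted p = 0.0269), with the constricted libraries in between at 165, 139 and 153 CPM. *Ramp1*, a subunit of the receptor for calcitonin gene-related peptide, was at 86.0, 105 and 93.0 CPM and 16.4 and 32.3 CPM (-1.90 ± 0.36, edgeR adjusted p = 0.0049). *Pygm* lost its call without untreated replicate 2 (-1.33), dilated replicate 1 (-1.34) or dilated replicate 2 (-1.41), *Ramp1* without dilated replicate 1 (-1.48), and *Phkg1* with any 1 library left out (-1.07 to -0.84). Of the higher genes, *Prdx6*, a peroxiredoxin that reduces peroxides, was called with each library left out and had a small spread within groups, at 118, 115 and 115 CPM and 305 and 295 CPM (1.41 ± 0.21, edgeR adjusted p = 5.51e-04).

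Some genes lay in opposite directions from the untreated level in the dilated and constricted libraries, a comparison that shares the untreated libraries. *Hunk*, a protein kinase, was at 120.0 and 122 CPM dilated, 59.1, 49.4 and 55.1 CPM untreated and 9.87, 6.05 and 39.8 CPM constricted. *Sybu*, an adaptor of kinesin transport, was at 335 and 339, 183, 189.8 and 187 and 125, 54.5 and 69.7 CPM in the same order, and *Rassf9* at 175 and 150.0, 64.5, 82.9 and 71.3 and 49.4, 18.2 and 59.7 CPM. For these genes the 3 groups did not overlap, but they were picked for it, and the share of all genes that do so is not given here. For *Rassf9* the lowest untreated value, 64.5 CPM in the shallowest library, was close to the highest constricted one, 59.7 CPM. The dilation call of *Rassf9* (1.15) was kept only without untreated replicate 1 (1.11). The constricted difference was not tested here.

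Ribosomal protein genes, a group chosen after seeing the values, were mostly above the untreated level. Of 65 tested, 60 had a positive log2 fold change, with a median of 0.47 against -0.0022 for all genes tested. Called higher were 2 (*Rps19* and *Rps25*), where 0.633% of all genes tested were. The *Rps25* call was lost with any 1 library left out (1.15 to 1.75). The summed level of the 97 ribosomal protein genes in the files was 4075, 3782 and 4043 CPM in untreated and 4786 and 5549.9 CPM in dilated libraries. The mean mitochondrial share of UMIs in sphincter 1 was 0.0565%, 0.0709% and 0.0599% untreated and 0.0713% and 0.0714% dilated.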
